A study of Mus musculus with 7 samples.

Results

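The 10 genes described here are transcription factors and cofactors of the erythroid and megakaryocyte lineages: Gata1, Gata2, Zfpm1, Tal1, Lyl1, Lmo2, Klf1, Nfe2, Gfi1b and Fli1. They were chosen by name for their known roles, but with earlier results of these data known, as were the gene lists used below. All 10 of 10 were among the 23930 genes of the count tables. Each was followed over 7 libraries of sorted mouse bone marrow cells. The measurement was the number of reads on 1 short amplicon per gene, scaled to the library total (CPM).

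The series asked how excess interleukin-10 (IL-10) alters blood progenitors. Its pMT-10 mice overexpress this anti-inflammatory cytokine, and its controls are C57BL/6 (BL/6) mice. As background, pMT-10 transgenes are driven by a metallothionein promoter that zinc induces. Every mouse, controls included, drank water with zinc for 15 days, so no group without zinc was compared. The 4 groups were pMT-10 common myeloid progenitors (CMPs; 2 libraries), pMT-10 CD150+CD48+ cells of the LSK fraction, which lacks lineage markers and carries SCA-1 and c-KIT (2 libraries), pMT-10 hematopoietic stem cells (HSC; 1 library) and BL/6 CMPs (2 libraries). No BL/6 library of LSK or stem cells was analysed here. The sources used here give neither the age and number of the mice nor the CMP and HSC gates. The labels do not say whether replicates are separate animals, and the p-values therefore cover sample-to-sample spread alone, which may be technical.

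Some properties of the libraries bear on every result below. One chip carried the LSK and pMT-10 CMP libraries, and the HSC and BL/6 CMP libraries were on the other, so strain and chip cannot be told apart in the CMPs. The 2 pMT-10 CMP libraries also lay further from each other than the pairs of the other groups, with an SD of 0.823 for the log2 difference over all tested genes, against 0.474 for LSK and 0.385 for BL/6 CMPs. Total counts ran from 7372430 to 13854314. Il10 itself had 0 to 2 counts in each library, under the floor of 3 counts, so the transgene's activity was not visible in these cells. The HSC library had the highest levels of the stem cell genes Procr (38.5 CPM), Fgd5 (26.2 CPM), Hlf (77.7 CPM) and Mecom (47.7 CPM) and the lowest Cd48 (6.49 CPM). Another stem cell gene, Mllt3, went against that label, at 7.02 CPM in HSC and 63.4 and 67.9 CPM in LSK. Ly6a, which encodes SCA-1, ranged from 249 to 331 CPM over LSK and HSC. Its levels in CMPs were 19.4 and 28.1 CPM for pMT-10 and 0.0923 and 2.02 CPM for BL/6.

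Red cells and platelets arise from closely related progenitors under a shared set of DNA-binding proteins. GATA2 acts early, in stem and multipotent cells, and is replaced at shared sites by GATA1 as erythroid and megakaryocytic cells mature, a step known as the GATA switch. GATA factors work in a complex with TAL1 or its relative LYL1 and the bridging protein LMO2, and with the cofactor FOG1, the product of Zfpm1. KLF1 and FLI1 restrain each other, KLF1 favouring the red cell and FLI1 the platelet lineage. NFE2 drives late platelet genes and globin genes, and GFI1B is a repressor that both lineages need.

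GATA factors bind the short word GATA with flanking bases, and the promoters of 3 members are shown for it: Klf1 and Gata2, the members with the widest range over the libraries, and Gfi1b, where the word lies on the strand of the gene. Promoter windows (250 bases before to 50 after the annotated start, 300 bases) came from RefSeq on GRCm38.p6, where 7 of the 10 members had 1 or more windows, 9 in all. Klf1, at chr8:84901732-84902031 on the plus strand, has in capitals TTATCA, the reverse complement of TGATAA, 80 bases before the start.
Klf1: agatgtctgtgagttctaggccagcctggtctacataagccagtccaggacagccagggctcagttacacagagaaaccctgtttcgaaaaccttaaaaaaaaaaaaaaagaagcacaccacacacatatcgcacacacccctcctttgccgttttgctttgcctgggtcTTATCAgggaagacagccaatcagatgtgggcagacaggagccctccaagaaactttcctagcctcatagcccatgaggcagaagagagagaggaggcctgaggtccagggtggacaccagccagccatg
Gfi1b, at chr2:28621933-28622232 on the minus strand and printed along the gene, has TGATAA in capitals 120 bases before the start.
Gfi1b: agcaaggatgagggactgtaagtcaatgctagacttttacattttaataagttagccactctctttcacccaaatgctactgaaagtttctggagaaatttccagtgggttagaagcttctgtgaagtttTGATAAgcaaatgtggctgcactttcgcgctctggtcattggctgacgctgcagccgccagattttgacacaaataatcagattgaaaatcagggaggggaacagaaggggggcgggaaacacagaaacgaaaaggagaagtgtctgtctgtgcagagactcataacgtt
Gata2, the upstream of its 2 windows, at chr6:88193641-88193940 on the plus strand, has neither word and so no capitals.
Gata2: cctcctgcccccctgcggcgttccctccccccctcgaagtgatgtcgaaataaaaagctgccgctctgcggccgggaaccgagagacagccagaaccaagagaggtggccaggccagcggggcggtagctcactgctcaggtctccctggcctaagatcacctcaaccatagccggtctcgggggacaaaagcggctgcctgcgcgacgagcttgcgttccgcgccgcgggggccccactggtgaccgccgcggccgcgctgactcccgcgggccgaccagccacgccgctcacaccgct

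AGATAA or TGATAA, searched on both strands, stood in the windows of Klf1, Gfi1b and Tal1 and not in those of Gata1, Gata2, Zfpm1 and Lyl1. By comparison, 18.6% of all 32851 promoter windows of the table held 1 of the 2 words. CACCC, a word bound by KLF proteins, was in a window of each of the 7 members, and 57.5% of all windows held it. CCGGAA, bound by ETS proteins such as FLI1, was in the Lyl1 window alone of the 9, against 14.9% of all windows. A match describes letters and does not show binding.

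In the GRCm38 annotation (GENCODE M21) Gata1 lies on X:7959260-7978071, Gata2 on 6:88193891-88207032, Klf1 on 8:84901928-84905291, Gfi1b on 2:28609450-28621982 and Fli1 on 9:32422204-32542861. Genes overlap 4 members: Nfix and 4931422A03Rik overlap Lyl1 and Lmo2 on the opposite strand, Gm20388 overlaps Zfpm1 on the same strand, and 6 short or noncoding genes overlap Fli1. The sources used here give neither the amplicon's place within each gene nor the strand setting of the counting, so the counts of those 4 members may include an overlapping gene. Levels of different genes are not compared, because amplicons differ in efficiency.

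Among the GATA factors and their cofactor, Gata1 was highest in BL/6 CMPs, at 420.7 and 427.5 CPM. The pMT-10 CMPs had 178.7 and 262.4 CPM, LSK 210.5 and 316.4 CPM and HSC 165.6 CPM (95% exact Clopper-Pearson interval 157 to 175, counting error only). The BL/6 CMPs stood above all other libraries, while the pMT-10 CMP and LSK ranges overlapped and HSC lay just under both. Gata2 had a different order, with 1448 and 1512 CPM in LSK, 763.1 and 732.3 CPM in BL/6 CMPs, 257.2 CPM in HSC, and 315.7 and 175.9 CPM in pMT-10 CMPs. LSK stood highest, BL/6 CMPs in the middle, and the HSC value fell between the 2 pMT-10 CMP libraries. Zfpm1 was at 1505 and 1183 CPM in LSK, 1415 CPM in HSC, 1134 and 1105 CPM in BL/6 CMPs, and 727.4 and 835.6 CPM in pMT-10 CMPs. The pMT-10 CMPs were lowest, and HSC lay within the LSK range.

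Of the basic helix-loop-helix pair and its LIM-domain bridge, Tal1 was at 160.9 and 170.8 CPM in BL/6 CMPs, 139.8 and 135.4 CPM in LSK, 106.5 CPM in HSC, and 70.84 and 134.9 CPM in pMT-10 CMPs. The pMT-10 CMP libraries spanned the HSC value, and BL/6 CMPs were above every other library. Lyl1, the TAL1 relative of early progenitors, had the narrowest range of the 10. The pMT-10 CMPs had 197.6 and 245.4 CPM, followed by 169.3 and 179.4 CPM in BL/6 CMPs, 165.4 CPM in HSC, and 150.1 and 153.0 CPM in LSK, a ratio of 1.64 between the highest and lowest library. Lmo2 was at 2636 CPM in HSC, 2440 and 1807 CPM in LSK, 1382 and 1437 CPM in BL/6 CMPs, and 1445 and 693.8 CPM in pMT-10 CMPs. HSC and LSK were above every CMP library, and the 2 pMT-10 CMP libraries fell on either side of the BL/6 pair.

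Klf1, the erythroid activator of globin and membrane genes, separated the stem cells from the rest. HSC had 2.912 CPM, from 22 counts (interval 1.83 to 4.41), against 36.42 and 53.55 CPM in pMT-10 CMPs, 42.55 and 47.71 CPM in LSK, and 34.53 and 46.62 CPM in BL/6 CMPs. The 3 other groups overlapped one another. Nfe2, the p45 subunit of the NF-E2 factor, was at 541.9 and 576.7 CPM in LSK and 387.4 CPM in HSC. Its levels in CMPs were 362.9 and 325.9 CPM for pMT-10 and 262.3 and 278.5 CPM for BL/6. Of the comparisons tested below, Nfe2 was called only in LSK against pMT-10 CMPs.

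Gfi1b was at 749.4 and 817.7 CPM in BL/6 CMPs, 582.5 CPM in HSC, 406.3 and 443.7 CPM in pMT-10 CMPs, and 369.7 and 379.3 CPM in LSK. The levels ranked in the order BL/6 CMP, HSC, pMT-10 CMP, LSK. Of the comparisons tested below, Gfi1b was called only between the CMPs. Fli1, an ETS factor of megakaryocytes and endothelium, reached 126.2 and 196.6 CPM in pMT-10 CMPs, with 183.2 CPM in HSC, 114.6 and 119.7 CPM in LSK, and 60.85 and 55.67 CPM in BL/6 CMPs. The BL/6 CMPs were lowest, and the HSC value lay inside the pMT-10 CMP range. In bulk RNA of sorted cells, fewer cells of a type and less RNA per cell cannot be told apart for any of these levels.

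**Figure D1:**
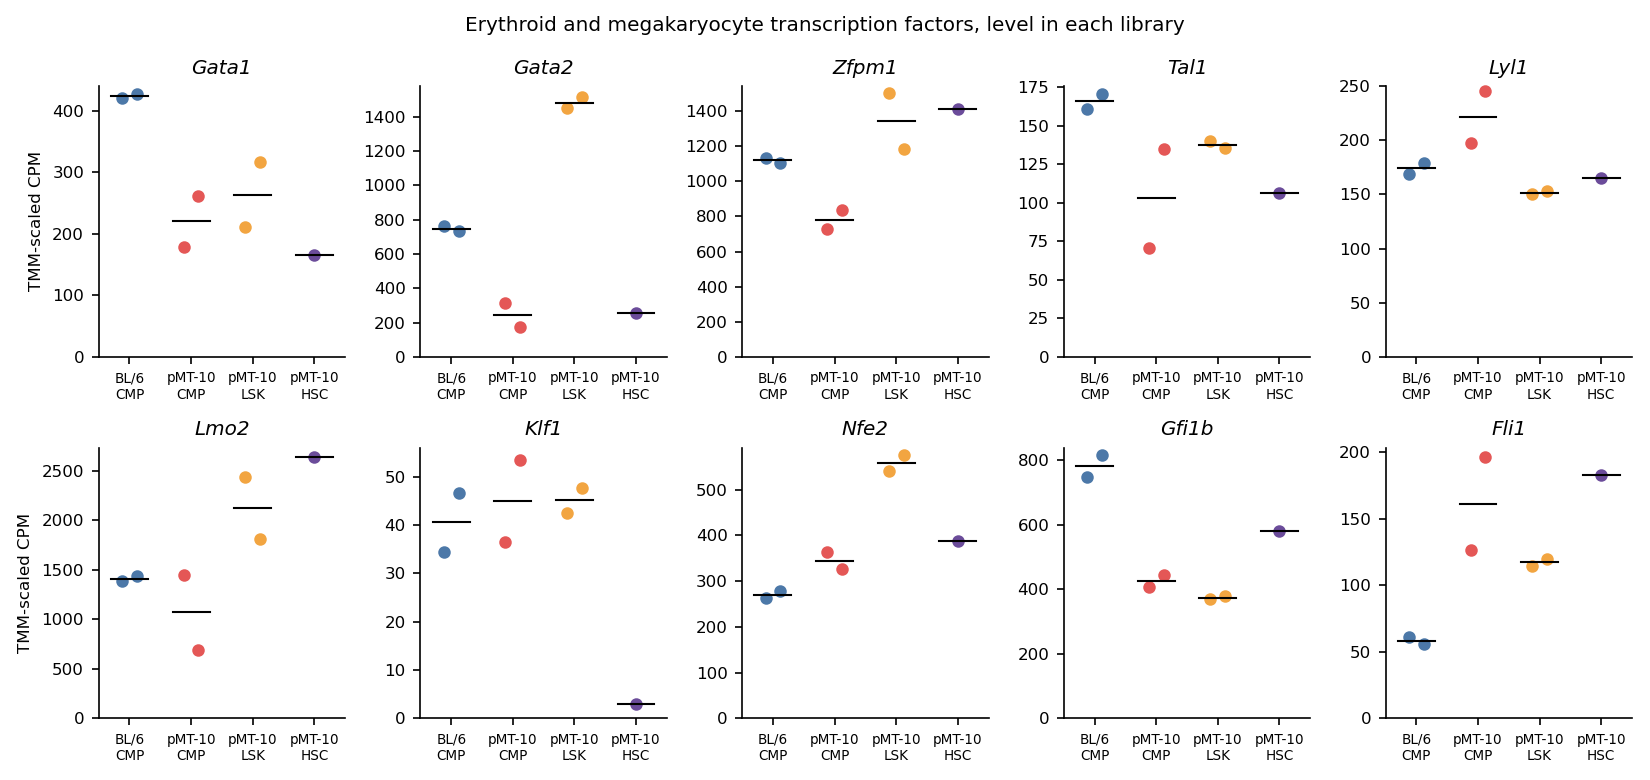
Level of each of the 10 factors in the 7 libraries, in CPM on a linear axis from 0, with 1 panel per gene, 1 point per library and a line at each group mean. Klf1 drops in the single HSC library to 2.912 CPM, Gata2 peaks in LSK at 1448 and 1512 CPM, and Fli1 is lowest in BL/6 CMPs.

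CMPs of pMT-10 mice had less Gata2, Gata1 and Gfi1b and more Fli1 than CMPs of BL/6 mice. Gata2 fell most, from 748 ± 21.8 CPM (SD, n = 2) to 246 ± 98.8 CPM (SD, n = 2), and Fli1 rose from 58.3 ± 3.67 to 161 ± 49.7 CPM. Of 25 tested megakaryocyte targets, 11 were called higher, 1 lower and 13 not. Of 31 tested erythroid targets, 2 were called higher, 3 lower and 26 not. In this comparison, edgeR's quasi-likelihood test called 28.0% of all tested genes at a Benjamini-Hochberg adjusted p under 0.05, so the 4 of 10 members called stand against a high background. By direction, 3 members were lower and 1 higher, where 13.7% and 14.3% of all genes were.

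The log2 fold change of Gata2 was -1.60 ± 0.26 (SE; adjusted p = 0.003475) and that of Fli1 was 1.47 ± 0.23 (adjusted p = 0.003155). Both kept their call under each alternative tried, with Fli1 between 1.12 and 2.12 and Gata2 between -4.13 and -1.24. Gata1 fell by 0.94 ± 0.25 on the log2 scale (adjusted p = 0.02203) and Gfi1b by 0.88 ± 0.17 (adjusted p = 0.006082). Without either BL/6 library neither of these 2 was called (adjusted p = 0.112 and 0.1124 for Gata1, 0.06346 and 0.08928 for Gfi1b, without BL/6 replicate 1 and 2). Zfpm1, at -0.52 ± 0.19 (adjusted p = 0.06384), and Tal1, at -0.69 ± 0.27 (adjusted p = 0.08576), did not pass. Nor did Nfe2 (0.35 ± 0.17, adjusted p = 0.1462), Lyl1 (0.35 ± 0.18, adjusted p = 0.1752), Lmo2 (-0.40 ± 0.31, adjusted p = 0.3542) or Klf1 (0.15 ± 0.25, adjusted p = 0.6907). The members called numbered 2 without BL/6 replicate 1 or 2, 6 without pMT-10 CMP replicate 1 and 7 without pMT-10 CMP replicate 2. Subtracting LSK minus HSC, a difference that spans the same chips but also compares other cells, left Gata2 (-4.13), Fli1 (2.12) and Gata1 (-1.61) called. It took the Gfi1b difference to -0.25 (adjusted p = 0.5417) and turned Klf1 to -3.80 (adjusted p = 0.00183). For Gata2, Fli1 and Gata1, HSC against LSK had the direction of the CMP change (-2.52, 0.64 and -0.67), and LSK minus HSC the opposite. The subtraction could therefore only enlarge these changes and cannot test the chip for them. It also set the ends of the ranges above at -4.13 and 2.12.

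Megakaryocyte and platelet genes that these factors are known to regulate numbered 29 on the list, 25 of them tested. Of these, 11 were higher and 1 was lower in pMT-10 CMPs, where 14.3% and 13.7% of all tested genes were. The list's median log2 fold change was 0.95, against 0.01 for all tested genes. Selp, which encodes the platelet adhesion receptor P-selectin, rose from 12.3 ± 1.89 to 48.1 ± 4.25 CPM (log2 1.96 ± 0.25, adjusted p = 0.00178). Itga2b, the integrin CD41 of early megakaryocytes, rose from 189 ± 4.57 to 462 ± 124 CPM (1.29 ± 0.22, adjusted p = 0.004242). Mmrn1, a platelet granule protein, had 25 and 22 counts in pMT-10 CMPs and 0 in both BL/6 libraries. The exception was Treml1, a platelet receptor gene named after its values were seen, which was lower (-1.33 ± 0.34, adjusted p = 0.01944). The number of list members called fell to 4 without BL/6 replicate 1 and to 4 without BL/6 replicate 2.

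Erythroid target genes numbered 39 on the list, 31 of them tested. Of these, 2 were higher and 3 lower, with a median of -0.10. This was a smaller share than the 28.0% of all tested genes called. Ermap, an erythroid membrane protein, fell from 194 ± 37.4 to 18.0 ± 16.6 CPM (-3.43 ± 0.56, adjusted p = 0.003577), and Slc25a37, the mitochondrial iron importer mitoferrin, fell from 30.8 ± 0.571 to 14.0 ± 1.59 CPM (-1.14 ± 0.23, adjusted p = 0.008271). Rhag, of the Rh membrane complex, rose from 94.4 ± 6.52 to 213 ± 21.8 CPM (1.17 ± 0.21, adjusted p = 0.004846). The count of 5 was 12 without pMT-10 CMP replicate 1, 8 without pMT-10 CMP replicate 2, and 1 without either BL/6 library. Subtracting the LSK minus HSC difference, which is itself large for these genes, gave 17, of which 15 were lower.

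The list of competing myeloid factors held factors of the granulocyte and monocyte fates, together with genes of wider use such as Myc. Of 19 listed, 17 were tested. In pMT-10 CMPs 5 were higher and 2 were lower, where 14.3% and 13.7% of all tested genes were. Cebpb, an activator used in emergency granulocyte production, rose from 9.35 ± 0.947 to 46.0 ± 6.24 CPM (2.30 ± 0.26, adjusted p = 0.001345), and Gfi1, the granulocytic paralog of Gfi1b, from 4.18 ± 0.947 to 18.6 ± 4.39 CPM (2.15 ± 0.35, adjusted p = 0.003741). Gfi1 and Gfi1b thus moved in opposite directions between the 2 CMP groups, which differ in both strain and chip. Myc fell from 1370 ± 155 to 630 ± 156 CPM (-1.12 ± 0.21, adjusted p = 0.006084). The count of 7 was 4 without either LSK library, 1 without BL/6 replicate 1 and 3 without BL/6 replicate 2.

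Markers of some other cell types also differed between the CMP groups, where strain and chip coincide. Granulocyte and monocyte markers summed to 491 and 781 CPM in pMT-10 CMPs and 234 and 204 CPM in BL/6 CMPs. Of 6 tested, Ctsg, Prtn3 and Elane were higher, and Ctsg and Prtn3 made up most of the sums, at 364 ± 140 and 235 ± 65.7 CPM against 98.6 ± 7.96 and 97.7 ± 9.64 CPM. The other 3, Mpo (log2 -1.003), S100a8 (-1.24) and S100a9 (-2.43), pointed the other way without passing, and the list's median was 0.13. Basophil, mast cell and eosinophil markers summed to 277.5 and 467.8 CPM against 66.4 and 65.2 CPM, and 4 of 6 tested were higher. GATA1 and GATA2 also act in those cells, and the part of such cells in the results was not tested. T and NK cell markers summed to at most 0.566 CPM in any library and macrophage markers to between 1.86 and 17.2 CPM. Levels of Kit, used to sort CMPs, were 95.3 and 140 CPM for pMT-10 and 303 and 274 CPM for BL/6.

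**Figure D2:**
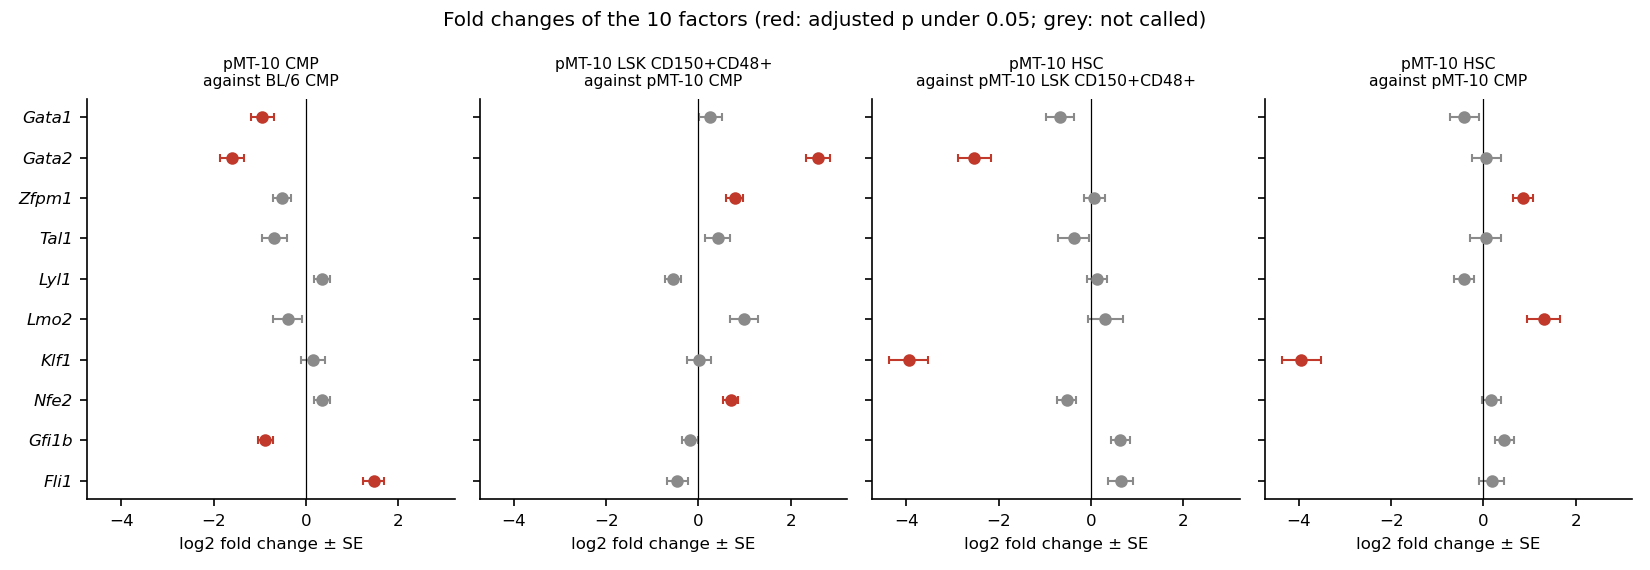
Log2 fold change of each of the 10 factors in the 4 comparisons, with bars of 1 SE from the edgeR fit; red points had an adjusted p under 0.05 and grey points did not. Gata2 is at -1.60 between the CMPs and at 2.59 between LSK and CMPs of pMT-10 mice, and Klf1 is at -3.95 and -3.94 in both comparisons of the HSC library.

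Within pMT-10 mice and on 1 chip, the more primitive LSK CD150+CD48+ cells had more Gata2, Zfpm1 and Nfe2 than CMPs. Gata2 rose from 246 ± 98.8 to 1480 ± 45.0 CPM (SD, n = 2 each), Zfpm1 from 782 ± 76.5 to 1344 ± 228 CPM, and Nfe2 from 344 ± 26.2 to 559 ± 24.6 CPM. Of 31 tested erythroid targets, 12 were lower in LSK and 1 was higher. Of the 10 members, 3 were called, all higher in LSK, where edgeR called 11.8% of all tested genes and 5.92% as higher. This comparison and the previous one share the pMT-10 CMP libraries.

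For Gata2 the log2 fold change was 2.59 ± 0.27 (adjusted p = 0.001183), and the call held in every alternative tried, between 2.23 and 3.07. Zfpm1 changed by 0.78 ± 0.19 (adjusted p = 0.02915) and Nfe2 by 0.70 ± 0.17 (adjusted p = 0.02981). Both calls were lost without either LSK or either BL/6 library and with only the 2 groups compared in the fit (adjusted p = 0.08629 for Zfpm1 and 0.1 for Nfe2). Lmo2 was at 0.99 ± 0.31 (adjusted p = 0.0671) and Lyl1 at -0.55 ± 0.18 (adjusted p = 0.0762), and neither passed. Lmo2 was called in 6 of its 16 alternatives, among them DESeq2 (0.99, adjusted p = 0.02188), no filter on low counts (0.999, adjusted p = 3.665e-05) and the replicate block (1.04, adjusted p = 0.03546). Fli1 (-0.46 ± 0.22, adjusted p = 0.1996), Tal1 (0.42 ± 0.27, adjusted p = 0.3274), Gfi1b (-0.18 ± 0.17, adjusted p = 0.4922), Gata1 (0.26 ± 0.25, adjusted p = 0.5151) and Klf1 (0.01 ± 0.25, adjusted p = 0.9906) did not pass. Only 1 member was called without either LSK library or either BL/6 library, 6 were without pMT-10 CMP replicate 1, and 5 without pMT-10 CMP replicate 2.

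The 12 erythroid targets lower in LSK included Tfrc, the transferrin receptor, which fell from 167 ± 14.1 to 51.9 ± 3.45 CPM (-1.69 ± 0.18, adjusted p = 0.00125). Add2, a membrane skeleton protein, fell from 275.5 ± 8.90 to 67.2 ± 16.6 CPM (-2.03 ± 0.22, adjusted p = 0.00125) and Rhag from 213 ± 21.8 to 62.0 ± 13.8 CPM (-1.78 ± 0.21, adjusted p = 0.002169). The list's median was -0.83, against -0.01 for all genes. None was called without LSK replicate 1, where edgeR called 44 genes in all, 5 were called without LSK replicate 2, and 8 with only the 2 groups in the fit.

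Megakaryocyte targets were called in both directions, 6 higher and 2 lower of 25. Treml1 rose from 2.70 ± 1.03 to 12.6 ± 0.0605 CPM (2.21 ± 0.33, adjusted p = 0.004762), while Selp fell to 12.8 ± 2.68 CPM (-1.91 ± 0.25, adjusted p = 0.00302). The count of 8 was 15 without pMT-10 CMP replicate 1, 0 without either LSK library and 3 without either BL/6 library or with only the 2 groups in the fit.

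Of the competing myeloid factors none was higher and 5 of 17 were lower in LSK. Cebpa, the initiator of the granulocyte and monocyte programme, fell from 64.5 ± 22.7 to 10.5 ± 2.34 CPM (-2.63 ± 0.30, adjusted p = 0.001666), and Gfi1 was at 0.378 ± 0.127 CPM in LSK, near the floor of 3 counts. The count of 5 was 9 and 8 without pMT-10 CMP replicate 1 and 2, 1 without either LSK library and 3 without either BL/6 library. Granulocyte and monocyte markers summed to 51.3 and 46.5 CPM in LSK and basophil, mast cell and eosinophil markers to 54.4 and 45.7 CPM, both under the pMT-10 CMP sums. Of each of these marker lists 4 of 6 tested were lower in LSK, and their part in the results was not tested.

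The HSC library had much less Klf1 than either other pMT-10 population, and less Gata2 than LSK. The log2 change of Klf1 was -3.95 ± 0.43 against LSK (adjusted p = 0.001169) and -3.94 ± 0.43 against pMT-10 CMPs (adjusted p = 0.0006194). Gata2 fell by 2.52 ± 0.35 against LSK (adjusted p = 0.002796), a library at 257.2 CPM against 1448 and 1512 CPM. Erythroid targets were mostly lower and megakaryocyte targets mostly higher in HSC. HSC had 1 library and lay on the other chip, so its spread is assumed to be that of the other groups, and population and chip cannot be told apart.

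Against LSK, 2 of 10 members were called, both lower, where edgeR called 18.8% of all tested genes and 8.15% as lower, so the members were called about as often as other genes. The calls of Klf1 and Gata2 held under every alternative tried. Gfi1b (0.64 ± 0.20, adjusted p = 0.05336), Nfe2 (-0.53 ± 0.21, adjusted p = 0.1056), Fli1 (0.64 ± 0.27, adjusted p = 0.1222) and Gata1 (-0.67 ± 0.31, adjusted p = 0.1574) did not pass. Without either pMT-10 CMP library, and likewise with only the LSK and HSC libraries in the fit, these 4 were called as well, 6 members in all. Tal1 (-0.37 ± 0.34), Lmo2 (0.31 ± 0.37), Lyl1 (0.13 ± 0.22) and Zfpm1 (0.07 ± 0.23) had adjusted p from 0.4685 to 0.8456.

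Against pMT-10 CMPs, 3 of 10 members were called, 2 higher and 1 lower, where edgeR called 25.5% of all tested genes, 13.8% as higher and 11.7% as lower, again a share close to that of the members. Lmo2 rose by 1.30 ± 0.36 on the log2 scale (adjusted p = 0.0298) and Zfpm1 by 0.86 ± 0.22 (adjusted p = 0.02265). Lmo2 was not called without either LSK or either BL/6 library (adjusted p = 0.07055 to 0.07283), nor Zfpm1 without BL/6 replicate 1 (adjusted p = 0.07404) or 2 (adjusted p = 0.07964). With only the libraries of HSC and pMT-10 CMPs in the fit, neither passed (adjusted p = 0.06398 for Lmo2 and 0.1793 for Zfpm1). Gata2 was at 0.06 ± 0.31 (adjusted p = 0.894) and Fli1 at 0.18 ± 0.27 (adjusted p = 0.649), so that neither HSC level could be told from that of the CMPs at this spread. Gfi1b (0.45 ± 0.20), Lyl1 (-0.42 ± 0.22), Gata1 (-0.41 ± 0.31), Nfe2 (0.17 ± 0.20) and Tal1 (0.05 ± 0.33) had adjusted p from 0.1228 to 0.9229. The number called was 6 without either pMT-10 CMP library and 1 without either BL/6 library.

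Erythroid targets of the HSC library were lower for 17 and higher for 2 of 31 against LSK, and lower for 20 and higher for 1 against pMT-10 CMPs. The medians were -1.16 and -2.49, the latter -2.12 with 1 gene that had 0 counts in HSC placed at its bound from the floor of 3 counts per library. Car1, a carbonic anhydrase of early erythroid cells, was at 426 CPM in HSC, 7968 ± 1280 CPM in LSK and 7300 ± 1222 CPM in pMT-10 CMPs (log2 -4.23 ± 0.31 and -4.10 ± 0.31, adjusted p = 0.0002674 and 0.0002051). Ank1, the membrane anchor ankyrin, was at 8.07 CPM in HSC, 106 ± 8.38 CPM in LSK and 264 ± 15.5 CPM in pMT-10 CMPs (adjusted p = 0.0002674 and 7.307e-05). The count of 19 against LSK was 10 without LSK replicate 2. Epor, the erythropoietin receptor, was at 77.6 CPM in HSC and between 147 and 268 CPM in the other libraries. The 2 targets higher against LSK were Alas2 and Bcl2l1, the latter named after its values were seen. Alas2 had 34 counts in HSC and 3 and 6 in LSK (3.46 ± 0.70, adjusted p = 0.01183). Bcl2l1 was higher against LSK (0.99 ± 0.27, adjusted p = 0.03345) and against pMT-10 CMPs (1.57 ± 0.27, adjusted p = 0.004533).

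Megakaryocyte targets were higher for 14 of 25 against LSK and for 16 of 25 against pMT-10 CMPs, and none was lower. The medians were 1.62 and 1.48. Vwf, the platelet adhesion protein that is also active in platelet-biased stem cells, was at 315 CPM in HSC, 36.2 ± 2.48 CPM in LSK and 24.1 ± 3.48 CPM in pMT-10 CMPs (log2 3.12 ± 0.23 and 3.71 ± 0.23, adjusted p = 0.0002674 and 0.0001053). Pf4, the chemokine platelet factor 4, was at 651 CPM in HSC and 104 ± 7.14 CPM in LSK (2.64 ± 0.29, adjusted p = 0.001208). Treml1 was at 38.4 CPM against 2.70 ± 1.03 CPM in pMT-10 CMPs (3.82 ± 0.37, adjusted p = 0.00042). The 14 calls against LSK were 6 without LSK replicate 1 and 9 without LSK replicate 2. Gp6, a receptor of mature platelets, had at most 1 count in any library. Vwf and Fli1 are also active in endothelium; endothelial and stromal markers summed to 182 CPM in HSC and 159 to 251 CPM elsewhere, with Col1a1 at 0 in all 7 libraries and Cdh5 at 0 in 6. Single markers of that list did move: Emcn was at 17.5 CPM in HSC, 0.603 ± 0.140 CPM in LSK (4.87 ± 0.58, adjusted p = 0.001509) and 1.31 ± 0.765 CPM in pMT-10 CMPs (3.73 ± 0.55, adjusted p = 0.002332). Tek was at 30.6 CPM in HSC and 10.8 ± 2.22 CPM in pMT-10 CMPs (1.496 ± 0.32, adjusted p = 0.0106), whereas Pdgfrb was lower in HSC (-2.08 and -2.49 against LSK and CMPs, adjusted p = 0.006042 and 0.002123). The medians of the 6 tested were 0.21 against LSK and 1.28 against CMPs. In HSC the granulocyte and monocyte markers summed to 116 CPM and the basophil, mast cell and eosinophil markers to 7.41 CPM. The B cell markers summed to 52.4 CPM, the highest of the 7 libraries. Single genes made up most of 2 of these sums. Cd79b gave 52.3 CPM of the B cell sum, with Ms4a1 at 0. Prtn3 gave 92.0 CPM of the granulocyte and monocyte sum, with Elane at 3.57 and Mpo at 0.265 CPM. The part of such cells in the results was not tested.

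**Figure D3:**
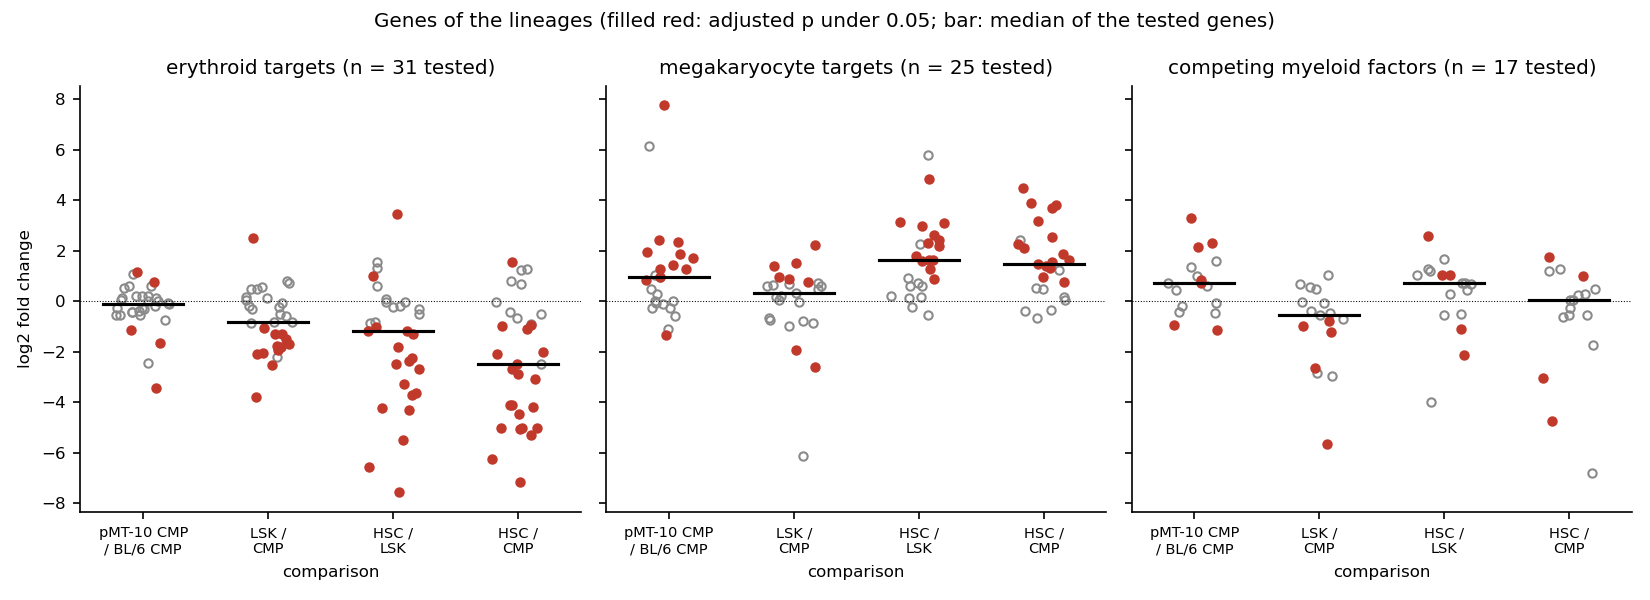
Fitted log2 fold change of each tested erythroid target, megakaryocyte target and competing myeloid factor in the 4 comparisons, with 1 point per gene, filled red where adjusted p was under 0.05, and a bar at the list's median. Points of genes with 0 counts in a whole group depend on the prior count. Erythroid targets sit lowest in HSC against pMT-10 CMPs (median -2.49), and the medians of the megakaryocyte targets lie above 0 in each comparison, from 0.31 to 1.62.

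How the 10 factors varied together was described by the root-mean-square (RMS) difference of their log2 CPM after centring each gene over the 7 libraries, where 0 means the same pattern. Gata1 and Tal1, partners in one complex, were the closest pair, at 0.313, followed by Zfpm1 with Tal1 at 0.385 and Zfpm1 with Lmo2 at 0.396. Klf1 was the factor farthest from 7 of the other 9, and Gata2 had no member nearer than Zfpm1, at 0.985. The SD of the centred log2 level was 1.35 for Klf1, 1.13 for Gata2 and 0.23 for Lyl1. Levels were not scaled by that SD, so a factor with a wide range lies far from the rest. The Klf1 distances rest largely on the single HSC library, at -3.26 against 0.23 to 0.86 in the other libraries. These 7 libraries share chips and strains, so the distances are a description.

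**Figure D4:**
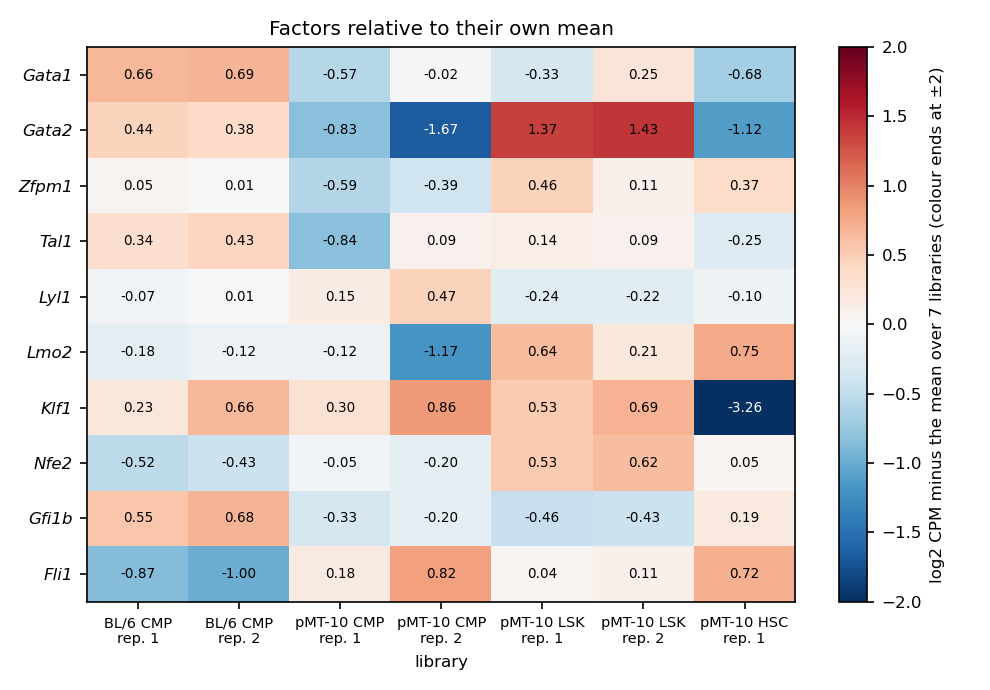
Centred log2 CPM of the 10 factors (rows) in the 7 libraries (columns), colour and printed number showing the difference from each gene's mean over the libraries. Klf1 in HSC (-3.26) has the strongest colour, followed by Gata2 in pMT-10 CMP replicate 2 and in LSK, and the 2 pMT-10 CMP libraries differ from each other at Lmo2 and Tal1.

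Ratios of a pair of members within 1 library do not depend on its total. The Gata2 to Gata1 count ratio was 6.88 and 4.78 in LSK, 1.81 and 1.71 in BL/6 CMPs, 1.55 in HSC, and 1.77 and 0.671 in pMT-10 CMPs. LSK thus stood apart, and pMT-10 CMP replicate 2 was lowest. The Fli1 to Klf1 ratio was 62.9 in HSC, 3.47 and 3.67 in pMT-10 CMPs, 2.69 and 2.51 in LSK, and 1.76 and 1.19 in BL/6 CMPs. The Tal1 to Lyl1 ratio was near 1 in LSK (0.932 and 0.885) and in BL/6 CMPs (0.95 and 0.952), 0.644 in HSC, and 0.359 and 0.55 in pMT-10 CMPs. As each ratio mixes 2 amplicon efficiencies, only its change between libraries can be read.

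The replicate pairs differed in how closely they held these genes. Between the 2 pMT-10 CMP libraries the median absolute log2 difference of the 10 members was 0.554, against 0.424 over all tested genes, with Lmo2 at 1.06, Tal1 at -0.93 and Gata2 at 0.84 (replicate 1 minus replicate 2). Between the BL/6 CMP libraries it was 0.084 against 0.156 over all genes, and between the LSK libraries 0.077 against 0.237. The BL/6 pair differed most at Klf1 (-0.43) and the LSK pair at Gata1 (-0.59).

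Over the 11429 tested genes, those with a pattern most like Gata1 were Lrrc25 (RMS 0.089), Hsdl1 (0.115) and Cyb561 (0.129). The nearest to Gata2 were Zgpat (0.153), Impa1 (0.217) and Apoe (0.225), and the nearest to Fli1 were Ankrd24 (0.098), Sigirr (0.13) and Rnf215 (0.138). Each distance is over 7 libraries and says nothing of shared control.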

How the data were processed

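Total RNA of sorted cells was made into libraries with a targeted kit that amplifies 1 amplicon per gene (Ion AmpliSeq Transcriptome), per the labels' protocols. The authors deposited raw counts per gene, with 1 table for each chip. The build mm10 is named per the submitters' processing notes, and an aligner and a counting program were not given in the sources used here. Reads carried no stated molecular identifiers, so Clopper-Pearson intervals (95%) and floors (3 counts, 0.216 to 0.407 CPM) cover counting error only. A variant or splice form at the amplicon can change a count.

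Counts were analysed with edgeR 4.0.16 in R 4.3.3: filterByExpr (minimum count 10) left 11429 of 23930 genes, all 10 members among them. Libraries were scaled by TMM, and all 7 entered 1 quasi-likelihood fit with 4 group means and 3 residual degrees of freedom. P-values were adjusted by Benjamini-Hochberg over all tested genes and called under 0.05. Every adjusted p in the text is from this test unless an alternative is named. CPM values use TMM-scaled totals, and likeness used log2 CPM with a prior count of 2. The code was tested on simulated data. Alternatives were other scalings, filters, DESeq2 1.42.0, limma-voom (limma 3.58.1), fewer groups, a replicate block and each replicate left out. A voom fit with quality weights was added after seeing the data.

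The members and lists were chosen with earlier results of these data known. Besides the members, the text names, per list and comparison, up to 3 called genes with the smallest p, genes of the cell type marker lists (Procr, Epor and Gp6 among them), and the 3 genes nearest in pattern to Gata1, Gata2 and Fli1. Other genes are said to be chosen after their values were seen. A gene that the rule names is not reported here. Promoters came from RefSeq (GRCm38.p6) and gene positions from GENCODE M21 (GRCm38), with mm10 taken as the same build.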

Additional observations from a re-analysis of the deposited data

How the results depend on the processing

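Over 610 alternative values of the members' log2 fold changes, 530 kept direction and call, 42 gained a call, 23 lost one and 15 changed sign. Leaving out 1 library at a time, the members called ranged from 2 to 7 between the CMPs, 1 to 6 for LSK against CMP, 2 to 6 for HSC against LSK and 1 to 6 for HSC against CMP. With only the 2 groups compared they numbered 1, 6 and 1 in the last 3 comparisons (3, 2 and 3 in the report), and quality weights gave 5 for HSC against LSK. A library left alone in its group was taken to have the spread of the rest. Signs changed for differences that had not passed. Between the CMPs, leaving out libraries took Lmo2 from -1.02 to 0.036 and Klf1 from -0.16 to 0.40. Subtracting the LSK minus HSC difference took Klf1 to -3.80 and Nfe2 to -0.18. That difference spans the chips but also compares other cells, and Klf1 was at -3.95 in HSC against LSK. For LSK against CMP, Klf1 was -0.035 with total counts and -0.24 to 0.31 with a library left out, where Gata1 ran from -0.067 to 0.56. For HSC against LSK, Zfpm1 ran from -0.09 to 0.26. For HSC against CMP, Tal1 was -0.006 with 2 groups and ran from -0.34 to 0.59, Fli1 from -0.10 to 0.54 and Gata2 from -0.30 to 0.55. The causes were not tested.

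All genes called numbered 3204, 1354, 2147 and 2912 in the 4 comparisons, with 582 to 5268, 44 to 4274, 266 to 4811 and 1733 to 5222 on leaving out a library, and 595, 3987 and 1042 with 2 groups in the last 3. Subtracting the LSK minus HSC difference gave 2125 in the first, no filter 2237 in the second and quality weights 3482 in the third. Fewer or more groups in the fit, the subtracted LSK minus HSC difference and the filter also moved some list counts by over 1.5 times. Without a filter the erythroid targets called between the CMPs were 8. The myeloid factors were then 9 for LSK against CMP and 8 for HSC against LSK. Equal replicate numbers did not pair the samples: deviations of same-numbered libraries correlated at -0.019, -0.019 and -0.076, and with the number as a block 4 members were called between the CMPs and 4 for LSK against CMP. Counting error is widest for Klf1 in HSC, which rests on 22 counts.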

Other observations

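Among 45 tested partner factors and cofactors of these genes (of 49 listed), 8 were higher and 11 lower in pMT-10 than in BL/6 CMPs, where 28.0% of all tested genes were called. Sp3, a GC-box factor, fell from 121 ± 8.99 to 29.0 ± 8.99 CPM (SD, n = 2 each; log2 -2.06 ± 0.25, edgeR adjusted p = 0.001574), Hhex, a homeobox repressor, from 135.5 ± 3.49 to 41.9 ± 4.70 CPM (-1.69 ± 0.20, adjusted p = 0.001574) and Ep300, the acetyltransferase that GATA1 recruits, from 205 ± 12.3 to 84.3 ± 13.5 CPM (-1.28 ± 0.19, adjusted p = 0.002611). Only 4 of these 19 calls were made without BL/6 replicate 1, and 4 without BL/6 replicate 2. In LSK against pMT-10 CMPs, with 11.8% of all genes called, 6 were higher and 3 lower, with Cbfb, the partner of RUNX proteins, at 447 ± 91.0 against 104 ± 18.0 CPM (2.10 ± 0.21, adjusted p = 0.001183). The count of 9 was 24 and 14 without pMT-10 CMP replicate 1 and 2, and 2 without either LSK library. In HSC, Mecom, a regulator of stem cells, stood at 47.7 CPM against 4.06 ± 0.0435 CPM in LSK (3.55 ± 0.34, adjusted p = 0.0007377) and 2.72 ± 0.254 CPM in CMPs (4.13 ± 0.35, adjusted p = 0.0003262). The list had 2 higher and 10 lower against LSK (18.8% of all genes called) and 10 in each direction against CMPs (25.5% of all genes called). Against LSK, more were called without either pMT-10 CMP library and fewer without either LSK or either BL/6 library. Against CMPs, more were called without pMT-10 CMP replicate 1 and fewer without either LSK or either BL/6 library.

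Among 21 tested later erythroid factors and repressors (of 24 listed), HSC were lower for 7 and higher for 4 against LSK and lower for 9 and higher for 3 against pMT-10 CMPs, beside 18.8% and 25.5% of all tested genes called. Stat5a, which relays the erythropoietin signal, was at 30.7 CPM in HSC, 103 ± 2.86 CPM in LSK and 130 ± 29.1 CPM in CMPs (log2 -1.75 ± 0.28 and -2.08 ± 0.29, adjusted p = 0.004974 and 0.001749). Id1, an inhibitor of helix-loop-helix proteins, was at 45.1 CPM against 4.45 ± 1.31 and 2.59 ± 0.390 CPM (3.36 ± 0.37 and 4.11 ± 0.39, adjusted p = 0.001219 and 0.0004106). The 11 calls against LSK were 1 without LSK replicate 1 and 3 without LSK replicate 2. Between the CMPs 1 was higher and 3 lower, a smaller share than the 28.0% of all genes called there, among them Bach2, a repressor at NF-E2 sites, which fell from 16.5 ± 1.92 to 3.51 ± 0.442 CPM (-2.23 ± 0.31, adjusted p = 0.002313). That count of 4 was 13 without pMT-10 CMP replicate 1, 2 without BL/6 replicate 1 and 1 without BL/6 replicate 2. In LSK against pMT-10 CMPs 2 were higher and 2 lower, where edgeR called 11.8% of all tested genes. These calls were lost without any one LSK or BL/6 library, where fewer genes were called in all. More of the list were called without either pMT-10 CMP library.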
